A study of Mus musculus with 17 samples.

Results

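The comparison set female mice with experimental autoimmune encephalomyelitis (EAE) against healthy female controls, in RNA pulled down with tagged ribosomes of cerebral cortex neurons. It used 8 of the 17 libraries of the series, 4 from female EAE mice (EAE 1, 3, 4 and 5, numbered as the labels number them) and 4 from female controls (control 1 to 4), each library from 1 mouse. No library of a male mouse entered the test. The genes were those of the autosomes with at least 1 count in at least 5 of the 8 libraries, which kept 20606 of the 39017 genes in the table. The study asked how EAE changes the RNA of cortical neurons in each sex. Mice of both groups were NSE-Cre:RiboTag mice on a C57BL/6J background. The number of copies of each allele per mouse is not given in the sources used here. A Cre recombinase driven by the rat promoter of neuron-specific enolase (NSE) switches on an HA-tagged form of the ribosomal protein Rpl22, and ribosomes were pulled down from cortex tissue with beads against HA. The tag therefore marks cells in which that promoter was active at any time, and RNA that sticks to the beads from other cells is also read. EAE was the chronic form, induced by immunization with a peptide of myelin oligodendrocyte glycoprotein (MOG) in complete Freund's adjuvant with a booster and pertussis toxin. All mice were perfused with saline and then with fixative before the cortex was taken. Controls were healthy mice matched for age and sex, so the adjuvant and the toxin cannot be told apart from the disease. The labels give neither age nor the time after induction of the mice behind these libraries. Nothing in the labels describes batches.

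EAE is the mouse model most often used for multiple sclerosis, in which T cells against myelin enter the central nervous system. Interferon gamma from such T cells acts on the promoters of target genes, among them the immunity-related and guanylate-binding GTPases and the genes that load peptides onto major histocompatibility complex (MHC) molecules. MHC class I molecules show peptides made inside a cell to CD8 T cells, and class II molecules show peptides taken up from outside to CD4 T cells. Plasma cells are the B lineage cells that secrete antibody, and their antibody messages are among the most abundant RNAs such a cell holds.

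Total counts were between 66155142 and 86691316 in EAE libraries, against 83664876 to 92822398 in control libraries (exact permutation test, two-sided, p = 0.0571, where 0.029 is the smallest p that 4 against 4 allows). Values are given as CPM, the usual scale of counts relative to the library's total, adjusted by TMM factors, and the floor of 3 counts that stands for a 0 corresponds to 0.0321 to 0.0439 CPM. Over 12820 genes, PC1 of a principal component analysis took up 61.2% of the variance and averaged 14.7 ± 20.4 in EAE and -14.7 ± 19 in control libraries (SD, n = 4 each, exact permutation p = 0.114, two-sided). Neuron markers summed to 11340 to 13800 CPM in EAE and 11170 to 13940 CPM in control libraries over 7 genes, among them Snap25, Slc17a7 and Gad1. Markers of other cells were present as well. The 10 astrocyte markers summed to 7731 to 9263 CPM in EAE and 7702 to 14620 CPM in control libraries, with control 2 at the top, and the 7 oligodendrocyte markers tested to 5257 to 7274 CPM and 5048 to 6238 CPM. The 9 microglial markers set 1 library of each group apart, with 121 CPM in EAE 1 and 31.9 to 39.2 CPM in the other EAE libraries, and with 77.5 CPM in control 3 and 41.3 to 47.1 CPM in the other controls. Total RNA of the same cortex was not analysed here, and a change cannot be assigned to a cell type from these values.

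A gene was called where its p, adjusted over all genes (the false discovery rate, FDR), was under 0.1 by edgeR's quasi-likelihood test and its log2 fold change exceeded 0.25 in size. This held for 36 genes, or 0.175% of those tested. Of these 30 were higher in EAE (0.146% of genes tested) and 6 lower (0.0291%), with adjusted p between 8.99e-05 and 0.0985. The genes that rose were mainly genes of antigen presentation, of the interferon response and of antibodies, and 22 of the 30 are on a list described here. The lists were written with earlier results of these data known, so this count is not a test. Median log2 fold changes were 2.75 for the 30 genes that rose and -1.09 for the 6 that fell, beside 0.01 for all genes tested. Most of the called genes were scarce, with 24 of the 36 at a mean log2 CPM of 1 or below. For all 36 the EAE and control libraries did not overlap, which was so for 7.54% of all genes tested. Before adjustment 3527 genes (17.1%) had a p under 0.05, of which 1929 were higher (9.36%) and 1598 lower (7.76%). In tissue RNA of this kind, more cells of a type and more RNA per cell cannot be told apart.

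**Figure D1:**
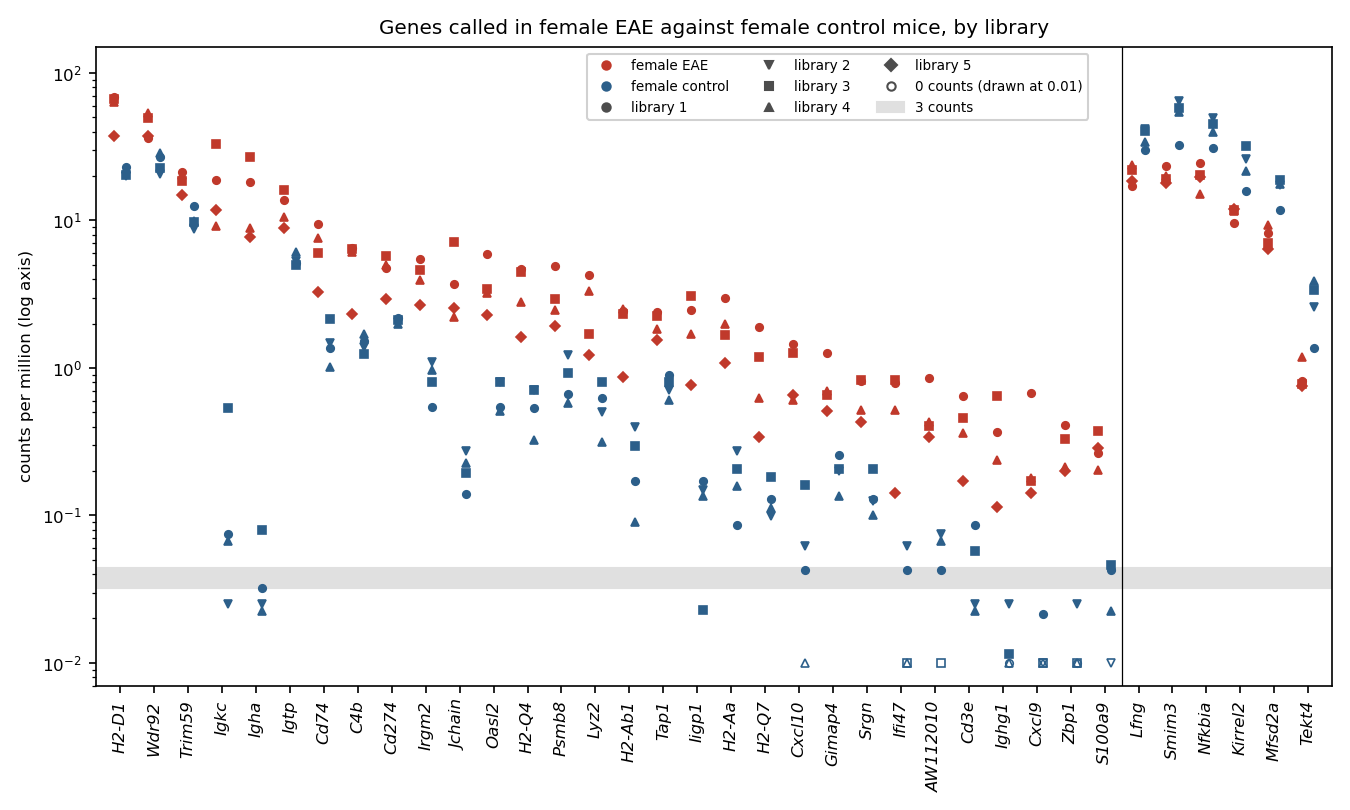
CPM (log axis) of the 36 called genes in each library, with female EAE in red left of female control in blue and 1 symbol per library number; open symbols at 0.01 stand for 0 counts and the grey band marks 3 counts. The 30 genes left of the line rose and the 6 right of it fell, and EAE 5 (diamond) is the lowest EAE library for 25 of the 30.

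Interferon-induced GTPases, which guard cells against vacuolar microbes, were called higher at 3 of the 9 members tested (0.146% of all genes tested). None was called lower, all 9 had a log2 fold change above 0 (50.6% of all genes tested) and 8 had groups that did not overlap (4.18% of all genes tested were higher without overlap). The median log2 fold change was 1.75, beside 0.01 for all genes. Igtp and Irgm2 have overlapping annotated spans on chromosome 11 (Igtp from 58199556 to 58207591 and Irgm2 from 58199618 to 58222782 of GRCm38, plus strand). Their promoters are shown because both carry the letters of both interferon elements searched for, the interferon-stimulated response element (ISRE, the letters GAAA, any 2 bases and GAAA, searched on both strands) and the gamma-activated site (GAS, the letters TTC, any 3 bases and GAA, the same on both strands). In each, the GAS match (first run of capitals) lies just before the ISRE match (second run), and the matches do not overlap. The sequences are from RefSeq, build GRCm38.p6, and run from 250 bases before to 50 bases after the start of transcription, chr11:58199306-58199605 for Igtp and chr11:58214727-58215026 for Irgm2, both plus strand. The Irgm2 window lies inside the annotated span of Irgm2 and not at the start of that span.
Igtp: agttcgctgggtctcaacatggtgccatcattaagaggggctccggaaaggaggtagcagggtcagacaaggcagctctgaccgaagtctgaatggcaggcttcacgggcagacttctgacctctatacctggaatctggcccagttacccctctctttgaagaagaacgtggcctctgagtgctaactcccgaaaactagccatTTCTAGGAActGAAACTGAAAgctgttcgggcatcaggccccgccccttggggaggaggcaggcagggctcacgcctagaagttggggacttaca
Irgm2: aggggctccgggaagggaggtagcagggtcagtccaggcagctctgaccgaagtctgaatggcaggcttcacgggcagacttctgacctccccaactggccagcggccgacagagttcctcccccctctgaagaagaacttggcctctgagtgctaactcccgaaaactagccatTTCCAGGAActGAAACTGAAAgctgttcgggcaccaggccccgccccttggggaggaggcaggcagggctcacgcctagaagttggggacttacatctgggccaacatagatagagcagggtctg

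The ISRE match began 34 bases before the start in Igtp and 64 bases before it in Irgm2, and the GAS match 45 and 75 bases before it. Among the genes that rose, 22 had 23 promoter windows in RefSeq. An ISRE match was in 4 of the 23 (17.4%), beside 3.04% of the 16866 windows of the genes tested, a GAS match in 3 (13%, beside 7.04%) and either in 5 (21.7%, beside 9.74%). None of the 5 windows of genes that fell held a match. These shares are descriptions of letters in a 300-base window and no test was made of them.

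Values by library are given in the order EAE 1, 3, 4 and 5, then control 1 to 4. Irgm2 (ENSMUSG00000069874) had 5.48, 4.64, 3.96 and 2.68 CPM in EAE libraries, against 0.546, 1.10, 0.801 and 0.968 CPM in controls. The lowest EAE library was above the highest control, and Irgm2 rose by 2.30 ± 0.27 (standard error) on the log2 scale (adjusted p = 0.00811). Igtp (ENSMUSG00000078853), also known as Irgm3, averaged 12.3 ± 3.20 CPM in EAE and 5.38 ± 0.511 CPM in control libraries (SD, n = 4 each), with a log2 fold change of 1.20 (adjusted p = 0.0371). The annotated spans of Igtp and Irgm2 overlap on the same strand, so reads in the shared stretch may have been counted for either. Iigp1, which attacks the vacuole of intracellular parasites, had 2.46, 3.07, 1.69 and 0.771 CPM in EAE, against 0.171, 0.15, 0.0229 and 0.135 CPM in control libraries, a log2 fold change of 4.04 (adjusted p = 0.0129). EAE 5 was the lowest EAE library and still lay above all 4 controls. Ifi47, another GTPase of this kind that is on no list, rose as well on 168 counts in EAE and 9 in control libraries, with 0.570 ± 0.318 CPM in EAE and 0.0263 ± 0.0314 CPM in control libraries (SD, n = 4 each; log2 fold change 4.38, adjusted p = 0.0835). Its span overlaps Olfr56 and Gm12188, so its reads are uncertain in part. Irgm1, the regulator of this GTPase family, did not pass the test, with 13.7 ± 2.29 CPM in EAE and 8.52 ± 0.602 CPM in control libraries (SD, n = 4 each; log2 fold change 0.68, adjusted p = 0.133), although its groups did not overlap. Of the 5 guanylate-binding proteins on this list, named here after their values were seen, none passed, and Gbp2, Gbp3, Gbp4 and Gbp9 were higher without overlap. Gbp2 came closest, with 3.92, 2.81, 1.42 and 0.942 CPM in EAE libraries, against 0.30, 0.536, 0.664 and 0.36 CPM in controls (log2 fold change 2.29, adjusted p = 0.11, and 0.0366 with no filter on low counts).

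Genes of MHC class I presentation rose in part. Of 16 tested, 3 were called higher (0.146% of all genes tested) and none lower, 5 were higher without overlap (4.18%), and the median log2 fold change was 0.39, beside 0.01 for all genes. H2-D1 (ENSMUSG00000073411, chromosome 17 from 35262730 to 35267499, plus strand), a heavy chain of class I, had 69, 66.6, 63.9 and 37.2 CPM in EAE libraries, against 23.2, 19.9, 20.4 and 22.4 CPM in controls. The controls lay close together and EAE 5 was the low EAE library. H2-D1 rose by 1.46 ± 0.17 (standard error) on the log2 scale (adjusted p = 0.00834). H2-K1, the other classical heavy chain of this strain, averaged 29.2 ± 8.64 CPM in EAE and 14.7 ± 2.50 CPM in control libraries (SD, n = 4 each; log2 fold change 0.99). It did not pass the test (adjusted p = 0.178), and EAE 5 at 16.8 CPM lay below control 2 at 17.4 CPM. It passed without EAE 5. These genes and the H2-Q genes are close paralogs, and reads that match several of them may have been split in the counting.

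Tap1, a subunit of the pump that carries peptides to class I, rose by 1.41 on the log2 scale, with 2.01 ± 0.388 CPM in EAE and 0.752 ± 0.120 CPM in control libraries (SD, n = 4 each; adjusted p = 0.0371). Psmb8, a subunit of the immunoproteasome that cuts peptides for class I, rose by 1.85 (adjusted p = 0.0729), with 3.06 ± 1.29 CPM in EAE and 0.847 ± 0.292 CPM in control libraries (SD, n = 4 each). Its promoter (chr17:34197945-34198244, plus strand, RefSeq, GRCm38.p6) is shown for the GAS match in capitals, which began 97 bases before the start.
Psmb8: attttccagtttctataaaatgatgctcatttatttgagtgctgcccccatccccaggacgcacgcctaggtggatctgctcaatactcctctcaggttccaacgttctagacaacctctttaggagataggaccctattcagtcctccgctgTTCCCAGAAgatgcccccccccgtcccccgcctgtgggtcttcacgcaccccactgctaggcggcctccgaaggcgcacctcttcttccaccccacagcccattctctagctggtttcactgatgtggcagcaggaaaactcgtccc

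Of the 9 non-classical class I genes tested, 2 were called higher (0.146% of all genes tested) and 5 were higher without overlap (4.18%), with a median log2 fold change of 0.55, beside 0.01 for all genes. H2-Q4 had 4.68, 4.51, 2.81 and 1.63 CPM in EAE libraries, against 0.535, 0.711, 0.709 and 0.327 CPM in controls, and rose by 2.58 on the log2 scale (adjusted p = 0.0225). H2-Q7 rose by 2.93 (adjusted p = 0.0729), with 1.01 ± 0.681 CPM in EAE and 0.131 ± 0.0366 CPM in control libraries (SD, n = 4 each). H2-T23, which encodes Qa-1, averaged 12.2 ± 2.79 CPM in EAE and 8.0 ± 0.973 CPM in control libraries (SD, n = 4 each; log2 fold change 0.61, adjusted p = 0.257). H2-T22 had a log2 fold change of -0.05. Class I, class II and complement genes share the MHC region of chromosome 17. From the start of H2-K1 (33996017) to the end of H2-Q7 (35443773), 100 genes were tested, 8 were called higher (0.146% of all genes tested) and none lower. The libraries were made with a stranded kit, but strand use in the counting is not given in the sources used here. If strand was not used, reads of Tap1, Psmb8 and H2-Q4 in shared stretches cannot be told apart from those of genes annotated on the other strand (Psmb9, Gm20496 and Gm11131).

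Of 8 MHC class II genes tested, 3 were called higher (0.146% of all genes tested) and none lower, 4 were higher without overlap (4.18%) and the median log2 fold change was 1.46, beside 0.01 for all genes. H2-Aa, the alpha chain of the I-A molecule, had 2.98, 1.68, 2.0 and 1.08 CPM in EAE libraries, against 0.0856, 0.274, 0.206 and 0.158 CPM in controls, a rise of 3.42 ± 0.39 (standard error) on the log2 scale (adjusted p = 0.0080). H2-Ab1, its beta chain, had 2.43, 2.32, 2.52 and 0.870 CPM in EAE libraries, against 0.171, 0.399, 0.297 and 0.0901 CPM in controls (log2 fold change 3.09, adjusted p = 0.0291). Cd74, the invariant chain that guards the peptide groove, averaged 6.60 ± 2.66 CPM in EAE and 1.5 ± 0.481 CPM in control libraries (SD, n = 4 each; log2 fold change 2.13, adjusted p = 0.0371). EAE 5 was the lowest EAE library for all 3 genes. The class II transactivator Ciita had a log2 fold change of -0.03 (a gene chosen after its values were seen).

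Among 30 interferon-stimulated genes of the antiviral kind, 2 were called higher (0.146% of all genes tested) and none lower, 15 were higher without overlap (4.18%) and 26 had a log2 fold change above 0 (50.6%), with a median of 0.52, beside 0.01 for all genes. The filter on low counts tilts these values upward. Zbp1, and also Oas1a, Oas3 and Oasl1, named after their values were seen, passed it only with their counts in the EAE libraries. Oasl2, a relative of the enzymes that sense double-stranded RNA, had 5.97, 3.44, 3.21 and 2.30 CPM in EAE libraries, against 0.546, 0.798, 0.801 and 0.507 CPM in controls, and rose by 2.49 on the log2 scale (standard error 0.30, adjusted p = 0.00842). Zbp1, a sensor of Z-form nucleic acids that can start necroptosis, rested on few reads. It had 84 counts over the 4 EAE libraries and 2 over the 4 controls, a ratio of summed CPM of 49.5 with a 95% counting interval of 13.3 to 415 (adjusted p = 0.0371). Stat2, a transcription factor of the type I interferon pathway, did not pass the test, with a log2 fold change of -0.01.

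Cxcl9 and Cxcl10, chemokines that call T cells bearing the receptor Cxcr3, were the 2 of 9 chemokines tested that were called, both higher (0.146% of all genes tested were called higher). Art3 lies on the other strand of the stretch that holds Cxcl10, so their reads in that stretch cannot be told apart either if strand was not used. Cxcl10 had 1.46, 1.26, 0.607 and 0.656 CPM in EAE libraries, against 0.0428, 0.0624, 0.160 and 0 CPM in controls (288 and 23 counts in all). Its log2 fold change was 3.88 (adjusted p = 0.050). Cxcl9 had 84 counts in EAE and 2 in control libraries, a ratio of summed CPM of 49.5 with a counting interval of 13.3 to 415 (adjusted p = 0.0825), and EAE 1 at 0.673 CPM lay far above the other EAE libraries (0.143 to 0.18 CPM). The Cxcl10 promoter (chr5:92348840-92349139, minus strand, RefSeq, GRCm38.p6) is shown for its ISRE match in capitals, 213 bases before the start.
Cxcl10: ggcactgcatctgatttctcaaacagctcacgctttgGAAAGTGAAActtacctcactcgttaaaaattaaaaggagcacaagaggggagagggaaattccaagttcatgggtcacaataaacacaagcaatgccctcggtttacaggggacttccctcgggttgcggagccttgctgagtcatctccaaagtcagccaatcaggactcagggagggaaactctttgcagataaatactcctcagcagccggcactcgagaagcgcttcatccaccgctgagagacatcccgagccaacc

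Igha and Igkc, genes of antibody chains, had the largest fold changes of the 36 genes called. Of 13 genes of immunoglobulins and plasma cells tested, 4 were called higher (0.146% of all genes tested) and none lower, 5 were higher without overlap (4.18%) and the median log2 fold change was 0.64. Igha (ENSMUSG00000095079, chromosome 12 from 113254830 to 113260236, minus strand), the heavy chain constant region of immunoglobulin A, had 18.4, 26.8, 8.93 and 7.71 CPM in EAE libraries, against 0.0321, 0.0249, 0.0801 and 0.0225 CPM in controls. That is 4456 counts in EAE and 14 counts in control libraries, a rise of 8.54 ± 0.56 (standard error) on the log2 scale (adjusted p = 8.99e-05). Igkc, the constant region of the kappa light chain, had 18.9, 33.2, 9.23 and 11.7 CPM in EAE libraries, against 0.0749, 0.0249, 0.538 and 0.0676 CPM in controls (log2 fold change 6.68, adjusted p = 0.00388). Jchain, which joins units of immunoglobulin A and M, had 3.71, 7.12, 2.23 and 2.57 CPM in EAE libraries, against 0.139, 0.274, 0.194 and 0.225 CPM in controls (log2 fold change 4.23, adjusted p = 0.00272). EAE 3 was the highest library for all 3 genes. Ighg1, the constant region of immunoglobulin G1, rose on 99 counts in EAE and 3 in control libraries, a ratio of summed CPM of 38.9 with a counting interval of 12.9 to 192 (adjusted p = 0.0604). Ighm, the constant region of immunoglobulin M, did not pass the test, with 80.2 ± 28.3 CPM in EAE and 85.1 ± 5.27 CPM in control libraries (SD, n = 4 each; log2 fold change -0.09, adjusted p = 0.844). In the same control libraries Igkc averaged 0.176 CPM and Jchain 0.208 CPM. The origin of the Ighm reads was not tested, so they are not taken here as a measure of B cells.

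Of the 6 B and plasma cell markers 3 were tested, and they summed to 11.5 to 40.5 CPM in EAE and 0.225 to 0.755 CPM in control libraries. Nearly all of that sum was Igkc and Jchain, so it restates the values of genes already called. The third, Cd79a, a chain of the B cell receptor, had 0.102, 0.144, 0.0225 and 0.0428 CPM in EAE libraries, against 0.0107, 0, 0.0229 and 0 CPM in controls (adjusted p = 0.257). The other 3 markers did not pass the filter on low counts. The 5 T cell markers summed to 26.1 to 49.2 CPM in EAE and 13.3 to 37.1 CPM in control libraries, most of it Cd4. Cd3e, a chain of the T cell receptor complex, rose as well, with 0.643, 0.459, 0.36 and 0.171 CPM in EAE libraries, against 0.0856, 0.0249, 0.0572 and 0.0225 CPM in controls (log2 fold change 3.04, adjusted p = 0.0825). Cd3d (2.35, adjusted p = 0.30) and Cd8a (3.26, adjusted p = 0.159), at these log2 fold changes, did not pass. Trac and Trbc2, genes of the T cell receptor named after their values were seen, had log2 fold changes of 0.33 and -0.0035 (adjusted p = 0.665 and 0.996). The median over the 11 T and B cell genes tested, of 14 on the list, was 2.35. Of the 11, 8 were higher at an unadjusted p under 0.05 (9.36% of all genes tested). The filter on low counts tilts both values upward. Cd3g and Cd8b1, named after their values were seen, passed it only with their counts in the EAE libraries. The part of such cells in the rise of the antibody and interferon genes was not tested.

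**Figure D2:**
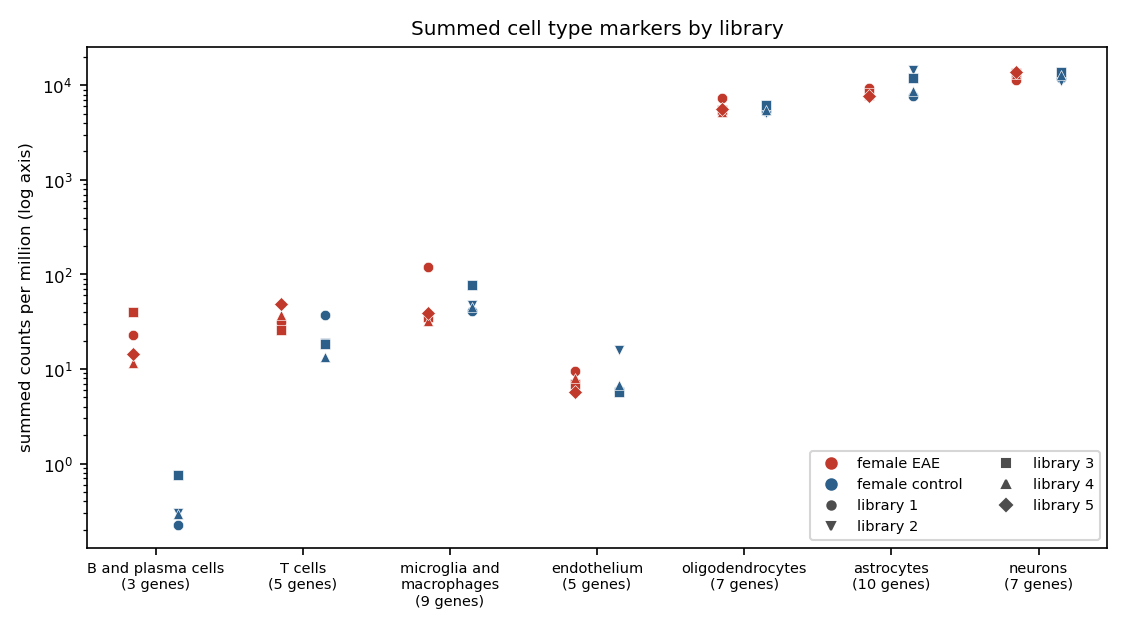
Summed CPM (log axis) of the markers of 7 cell types in each library, with female EAE in red left of female control in blue and 1 symbol per library number. B and plasma cell markers, nearly all Igkc and Jchain, lie at 11.5 to 40.5 CPM in EAE and at 0.225 to 0.755 CPM in control libraries, while microglial markers are highest in EAE 1 (121 CPM) and control 3 (77.5 CPM) and neuron markers overlap between groups.

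Of 16 genes of microglia and macrophages 1 was called higher (0.146% of all genes tested), Lyz2, the lysozyme of macrophages and granulocytes. It had 4.30, 1.71, 3.34 and 1.23 CPM in EAE libraries, against 0.621, 0.499, 0.801 and 0.315 CPM in controls (log2 fold change 2.24, adjusted p = 0.0835). The defining genes of microglia overlapped between groups. C1qa, the first subunit of complement C1q, was 23.3 CPM in EAE 1 and 2.12 to 3.78 CPM in the other EAE libraries, and 11.4 CPM in control 3 and 2.87 to 4.39 CPM in the other controls. Its log2 fold change was 0.49 (adjusted p = 0.739), and -1.04 without EAE 1. Cx3cr1 and P2ry12 had log2 fold changes of 0.23 and 0.20, and -0.91 and -0.44 without EAE 1. Of 16 complement genes tested C4b alone was called, and it was higher (0.146% of all genes tested). C4b had 6.49, 6.39, 6.15 and 2.31 CPM in EAE libraries, against 1.52, 1.40, 1.25 and 1.69 CPM in controls (log2 fold change 1.87, adjusted p = 0.0428). C1ra, a protease of the C1 complex, was also higher without overlap (1.96 ± 0.408 CPM in EAE and 1.12 ± 0.252 CPM in control libraries, SD, n = 4 each) and did not pass the test (adjusted p = 0.257). S100a9, a calcium-binding protein of neutrophils, rose on 82 counts in EAE and 10 in control libraries (ratio of summed CPM 9.65, counting interval 4.99 to 20.9, adjusted p = 0.0985).

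Besides Ifi47 and S100a9, 6 genes that rose were on no list. Cd274 (PD-L1), the ligand that restrains T cells through PD-1, had 4.77, 5.77, 4.97 and 2.94 CPM in EAE libraries, against 2.18, 2.06, 2.13 and 1.98 CPM in controls (log2 fold change 1.14, adjusted p = 0.0729). Srgn, the proteoglycan of secretory granules in blood cells, rose by 2.20 (adjusted p = 0.050), and Gimap4, a GTPase of lymphocytes, by 1.96 (adjusted p = 0.0791). AW112010, an interferon-induced transcript annotated as noncoding, had 148 counts in EAE and 16 in control libraries (log2 fold change 3.41, adjusted p = 0.0744). Trim59 and Wdr92 had smaller changes at higher levels. Trim59, a protein with a RING domain, averaged 18.7 ± 2.78 CPM in EAE and 10.3 ± 1.64 CPM in control libraries (SD, n = 4 each; log2 fold change 0.86, adjusted p = 0.0729). Wdr92, a protein with WD repeats that helps assemble dynein arms, averaged 44.2 ± 8.48 CPM in EAE and 24.7 ± 3.65 CPM in control libraries (SD, n = 4 each; log2 fold change 0.84, adjusted p = 0.0835). The span of Wdr92 overlaps Pno1 on the same strand and Ppp3r1 on the other, so part of its reads may belong to them.

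Of the 6 genes that fell, 5 had a mean log2 CPM above 1, as had 7 of the 30 that rose. Smim3, a small membrane protein, had 23.5, 19, 19.9 and 17.9 CPM in EAE libraries, against 32.5, 64.5, 57.6 and 54 CPM in controls, and fell by 1.38 on the log2 scale (standard error 0.19, adjusted p = 0.0204). Nfkbia, the inhibitor that holds NF-kappaB in the cytoplasm, had 24.4, 20.2, 15 and 19.7 CPM in EAE libraries, against 31, 49.8, 45.1 and 39.6 CPM in controls (log2 fold change -1.06, adjusted p = 0.050). Mfsd2a, the transporter of docosahexaenoic acid at the blood-brain barrier, had 8.19, 6.99, 9.33 and 6.36 CPM in EAE libraries, against 11.7, 17.4, 18.9 and 17.7 CPM in controls (log2 fold change -1.09, adjusted p = 0.050). In all 3 genes control 1 was the control nearest to the EAE libraries, and it was the lowest control for all 6 genes that fell. Lfng, which modifies Notch receptors, was the 1 called gene of 21 tested on the list of Notch and Id genes (log2 fold change -0.85, adjusted p = 0.0618). Of all genes tested 0.0291% were called lower. It averaged 20.4 ± 3.11 CPM in EAE and 36.7 ± 5.42 CPM in control libraries (SD, n = 4 each). Kirrel2, a cell adhesion molecule of the nephrin family, fell by 1.09 (adjusted p = 0.0744), with 11.2 ± 1.10 CPM in EAE and 23.9 ± 6.89 CPM in control libraries (SD, n = 4 each). Tekt4, a tektin of cilia and flagella, fell by 1.65 (adjusted p = 0.0906), with 0.819, 0.775, 1.18 and 0.756 CPM in EAE libraries, against 1.37, 2.57, 3.36 and 3.87 CPM in controls.

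No gene passed the test on the other lists, and their values are given as counts and medians. Genes of the respiratory chain leaned lower. Of 34 genes of complex I tested, 31 had a log2 fold change below 0 (50.6% of all genes tested were above 0), 14 had an unadjusted p under 0.05 and were lower (7.76% of all genes tested), and none separated the groups. Their median was -0.32, beside 0.01 for all genes. Ndufa2, an accessory subunit, had 69.4, 42.7, 38.3 and 57.3 CPM in EAE libraries, against 75.6, 114, 72.8 and 59 CPM in controls (log2 fold change -0.63, adjusted p = 0.257), so control 4 lay within the range of EAE. For complexes II to V 32 of 37 were below 0, with a median of -0.33 and Uqcr11 at -0.66. The mitochondrial ribosome had a median of -0.26 over 76 genes, of which 6 were lower without overlap (3.35% of all genes tested), and the cytosolic ribosome -0.30 over 75 genes, of which 3 were. The constitutive proteasome had a median of -0.20 over 31 genes, glycolysis -0.25 over 15 and the tricarboxylic acid cycle -0.16 over 15. EAE 4 and control 2, the ends of PC1 (40.6 and -41.2), stood apart on these lists. They also had the highest and the lowest slope of expression on gene length (0.118 and -0.105). The part of gene length in these medians was not tested. EAE 4 was the lowest of the 8 libraries for 20 of the 34 complex I genes, 18 of the 37 of complexes II to V, 50 of the 76 of the mitochondrial ribosome, 45 of the 75 of the cytosolic ribosome and 16 of the 31 of the proteasome. Control 2 was the highest library for 29, 33, 60, 50 and 24 of the genes on the same lists. Without EAE 4 and control 2, a choice made after seeing the data, the medians were -0.15 for complex I, -0.12 for complexes II to V, -0.12 for the mitochondrial ribosome, -0.12 for the cytosolic ribosome, -0.082 for the proteasome, -0.092 for glycolysis and -0.017 for the tricarboxylic acid cycle, beside 0.0017 for all genes. Within glycolysis Pkm, the pyruvate kinase of brain, had 951, 827, 759 and 986 CPM in EAE libraries, against 997, 1163, 1072 and 995 CPM in controls (log2 fold change -0.26, adjusted p = 0.273).

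**Figure D3:**
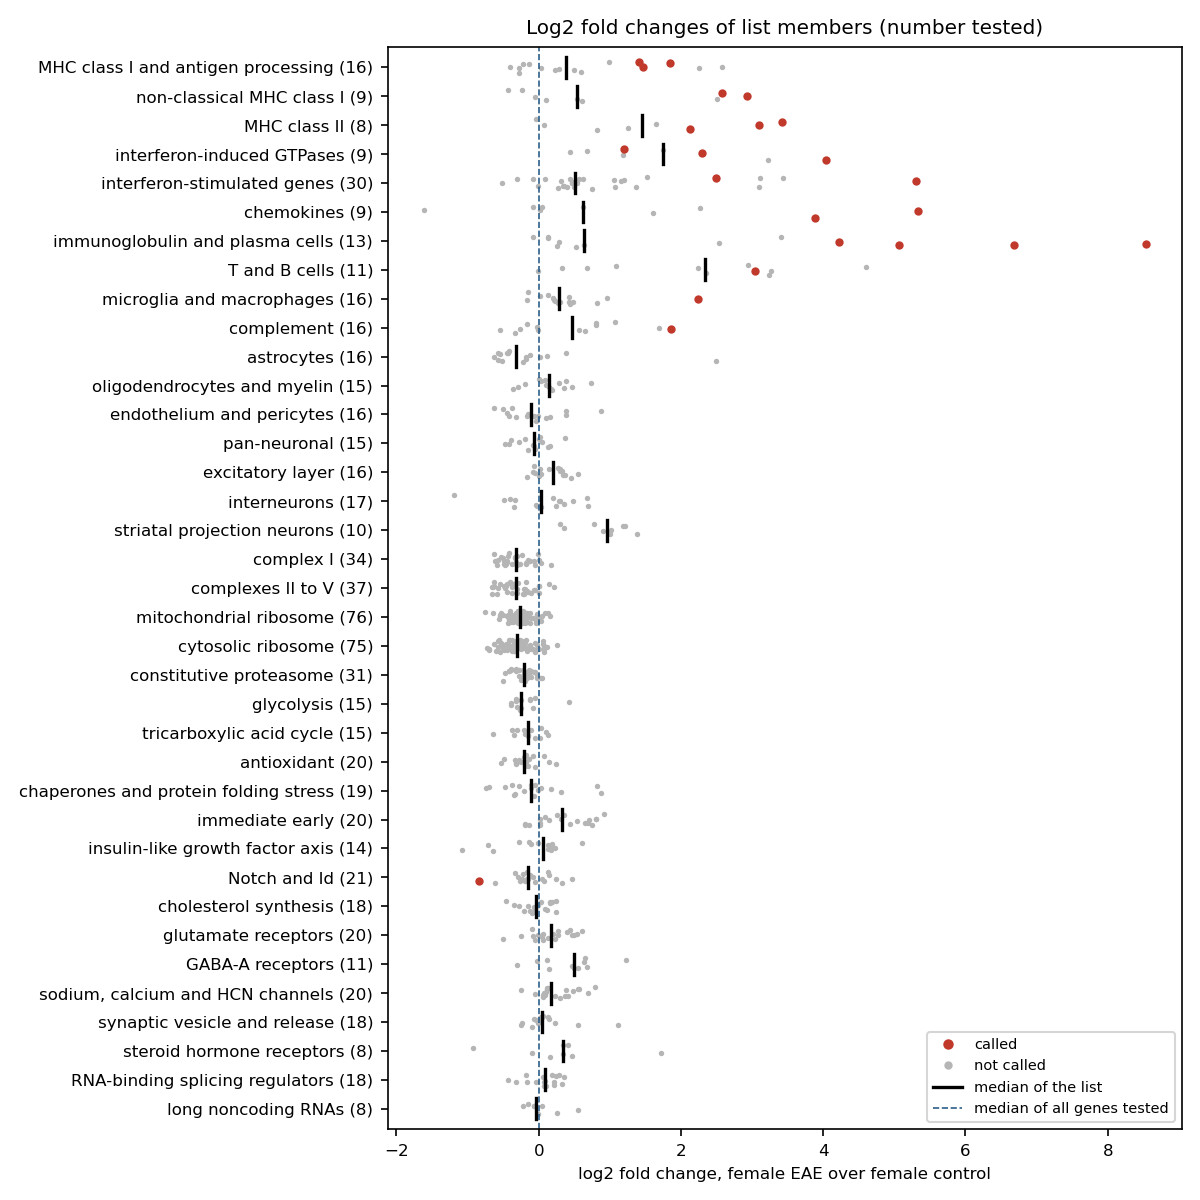
Log2 fold changes (female EAE over female control) of the members of 37 gene lists, 1 point per gene, with called genes in red, others in grey, list medians as black bars and the median of all genes tested as a dashed line. Called genes sit in the immune lists at the top, apart from Lfng in the Notch and Id list, and the medians of the respiratory chain and ribosome lists lie between -0.33 and -0.26 (between -0.15 and -0.12 without EAE 4 and control 2).

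Several neuronal lists leaned higher, again with no gene past the test. All 10 striatal projection neuron genes had log2 fold changes above 0, with a median of 0.95, while none separated the groups. Pde10a, a phosphodiesterase of these neurons, had 66.6, 62.1, 156 and 89.0 CPM in EAE libraries, against 65.1, 22.9, 23.8 and 30.8 CPM in controls (log2 fold change 1.39, adjusted p = 0.257). Control 1 was as high as EAE 1 and 3 and EAE 4 was the highest library, as it was for 8 of the 10 genes. Without control 1 Pde10a passed the test, and without EAE 4 and control 2 the median of the list was 0.63. These genes mark striatum, while the tissue is labelled cortex, and the share of striatum in each library was not tested. GABA-A receptor subunits had a median of 0.50 over 11 genes, 6 of them higher at an unadjusted p under 0.05 (9.36% of all genes tested), and of 0.21 without EAE 4 and control 2. EAE 4 was the highest library for 9 of the 11. Immediate early genes, which neurons switch on within minutes of firing, had a median of 0.33 over 20 genes, and of 0.13 without EAE 4 and control 2. Control 2 was the lowest library for 11 of the 20, and 3 were higher without overlap (4.18% of all genes tested). Among these, Btg2 had 23.2, 21.2, 13.2 and 14.7 CPM in EAE libraries, against 9.51, 8.31, 8.20 and 12.2 CPM in controls, and Dusp1, a phosphatase of MAP kinases, 66, 60.2, 38.1 and 48.4 CPM, against 28.5, 25.5, 30.3 and 37.6 CPM (adjusted p = 0.179 and 0.173). Both passed without EAE 4.

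Lists of cortical neuron genes had medians nearer to that of all genes. The pan-neuronal list had a median of -0.06 over 15 genes, the excitatory layer list 0.21 over 16 and the interneuron list 0.03 over 17. Without EAE 4 and control 2 these medians were -0.12, 0.086 and -0.17. Rbfox3, the splicing factor detected as NeuN, was lower without overlap, with 1141, 1110, 780 and 1155 CPM in EAE libraries, against 1189, 1536, 1560 and 1304 CPM in controls (log2 fold change -0.42, adjusted p = 0.257). Pvalb, a calcium buffer of fast-spiking interneurons, averaged 46.8 ± 3.16 CPM in EAE and 65.6 ± 12.6 CPM in control libraries (SD, n = 4 each; adjusted p = 0.257), and its groups did not overlap. Medians were 0.17 for 20 glutamate receptor genes, 0.18 for 20 sodium, calcium and HCN channel genes, 0.04 for 18 synaptic vesicle genes, 0.08 for 18 splicing regulators and -0.04 for 8 long noncoding RNAs. They were -0.20 for 20 antioxidant genes, -0.11 for 19 chaperone and folding stress genes and -0.03 for 18 genes of cholesterol synthesis. Without EAE 4 and control 2 the medians were -0.041 for glutamate receptors, 0.055 for the channels and 0.011 for synaptic vesicle genes. They were 0.012 for splicing regulators, 0.092 for long noncoding RNAs, -0.040 for antioxidant genes, -0.077 for chaperones and 0.014 for cholesterol synthesis.

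Astrocyte genes had a median of -0.32 over 16 genes, and of -0.20 without EAE 4 and control 2. Control 2 was the highest library for 7 of the 16, as for Aldoc, an aldolase of astrocytes, which had 1801, 1348, 1006 and 1643 CPM in EAE libraries, against 1400, 3336, 2224 and 1648 CPM in controls. Among the 16 genes 1, the receptor Fgfr3, was lower without overlap (105 ± 18.1 CPM in EAE and 157 ± 25 CPM in control libraries, SD, n = 4 each, adjusted p = 0.253). Of all genes tested 3.35% were lower without overlap. Gfap, the filament protein that reactive astrocytes increase, averaged 410 ± 108 CPM in EAE and 313 ± 104 CPM in control libraries (SD, n = 4 each; log2 fold change 0.39, adjusted p = 0.390). Genes of endothelium and pericytes had a median of -0.11 over 16 genes, and of 0.020 without EAE 4 and control 2. Myelin and oligodendrocyte genes had a median of 0.15 over 15 genes, and Mog, whose peptide was used for immunization, had a log2 fold change of 0.15. In the insulin-like growth factor axis Igfbp2 and the protease Htra1, which cuts binding proteins of this family, were lower without overlap. They were 2 of 14 genes tested, beside 3.35% of all genes. Igfbp2 had 43, 41.3, 36.8 and 46.2 CPM in EAE libraries, against 71.3, 131, 96.2 and 54.9 CPM in controls (log2 fold change -1.08, adjusted p = 0.144). Both passed without control 1, Igfbp2 also without control 4 and Htra1 also without EAE 4. Of 8 steroid hormone receptor genes none passed the test. Esr1, an estrogen receptor, had 2.90, 3.93, 3.89 and 4.22 CPM in EAE libraries, against 3.31, 3.27, 2.10 and 3.15 CPM in controls (log2 fold change 0.34, adjusted p = 0.356).

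How many genes passed depended on single libraries. Igha, Igkc, Jchain, H2-Aa, H2-D1, Irgm2, Oasl2 and Iigp1 were called in all 8 fits that left out 1 library each, and H2-Ab1, H2-Q4 and Smim3 in 6 of them. Kirrel2 and S100a9 were called in 1. The number of calls was 8 without EAE 3, 14 without EAE 1, 33 without EAE 4 and 36 without EAE 5, and it was 102 without control 1, 14 without control 2, 10 without control 3 and 15 without control 4. Without control 1 all 36 genes were called, and 41 of the 102 were lower. Without EAE 1 and control 3, the library of each group with the most microglial RNA, 4 genes were called, Igha, Igkc, Jchain and Oasl2, and 3705 had an unadjusted p under 0.05. This last choice was made after seeing the data. Across the 8 fits the log2 fold change of H2-D1 lay between 1.38 and 1.63 and that of Igha between 8.13 and 9.09.

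**Figure D4:**
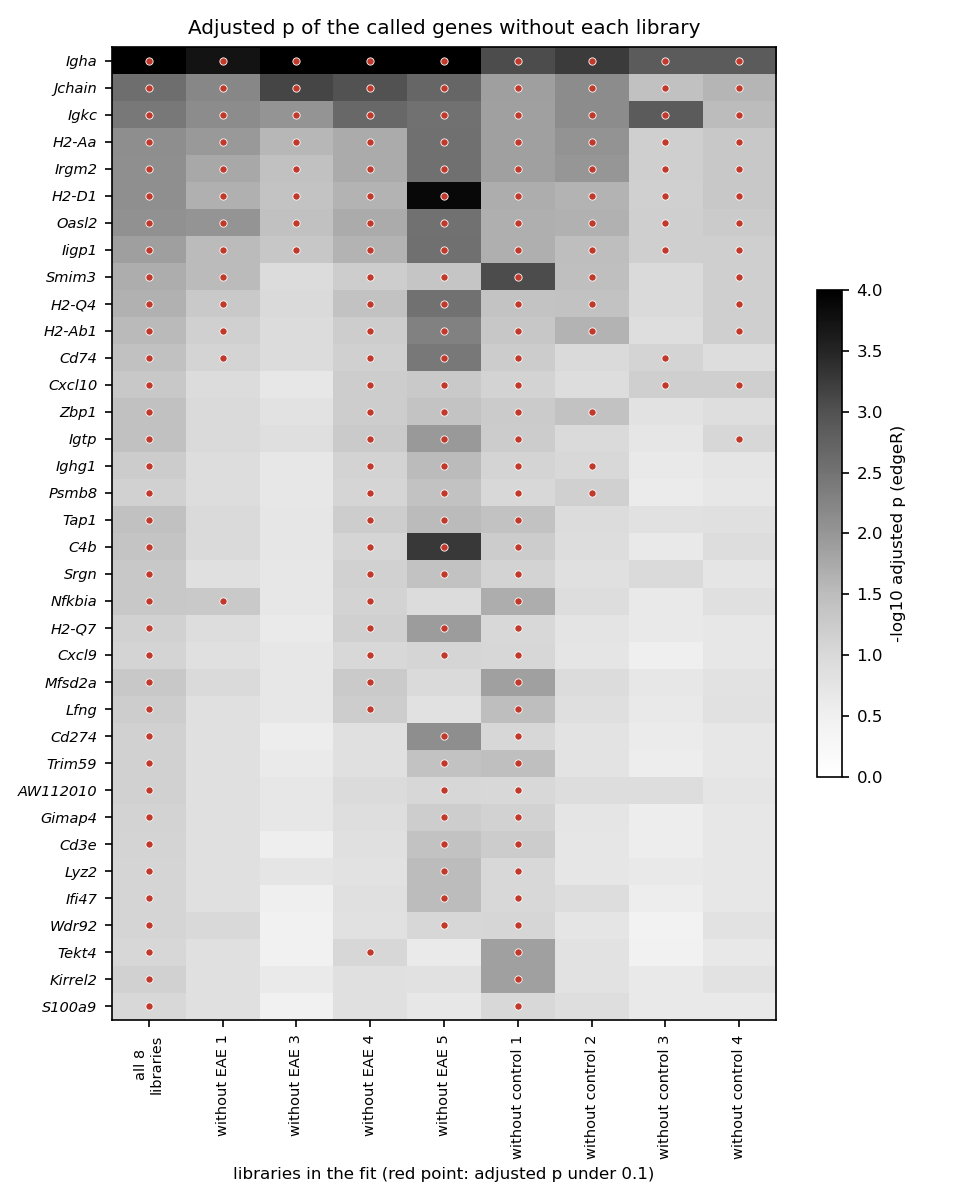
Adjusted p (edgeR, as -log10 in grey) of the 36 called genes with all 8 libraries and without each library in turn, with a red point where it was under 0.1. The top 8 genes, from Igha to Iigp1, keep a red point in every column, and the column without control 1 keeps all 36.

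The genes called in females were set beside the same contrast in male mice. Tested on the same 20606 genes, male EAE mice (5 libraries) differed from male controls (4 libraries) at 8420 genes, or 40.9%, of which 4307 were higher (20.9%) and 4113 lower (20%). All 30 genes that rose in females had a log2 fold change above 0 in males, and 27 were also called higher there (20.9% of all genes tested). All 6 genes that fell were below 0 in males, and 5 were called lower (20%). The share of all genes above 0 in males was not counted. The male fit shares no library with the female fit. H2-D1 averaged 57.1 CPM in male EAE and 21.2 CPM in male control libraries, a log2 fold change of 1.43. Tap1, Cxcl9 and S100a9 among the genes that rose (adjusted p in males 0.119, 0.14 and 0.351) and Tekt4 among those that fell (0.175) did not pass in males. Whether the response itself differed between the sexes was tested by the interaction over all 17 libraries. By edgeR no gene passed (0%, smallest adjusted p = 0.444), while 872 genes (4.23%) were under 0.05 before adjustment and the DESeq2 test of the same term called 3. These were Gadd45b, Junb and Gm10309, named here after their values were seen, with log2 differences (females minus males) of 0.87, 1.5 and -3.99. Among the 36 genes, Zbp1 and Cxcl10 had an unadjusted interaction p under 0.05 in edgeR's test. The log2 fold change was 5.30 in females and 2.02 in males for Zbp1, and 3.88 in females and 1.59 in males for Cxcl10. Neither passed after adjustment over all genes (edgeR, adjusted p = 0.80 for both).

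**Figure D5:**
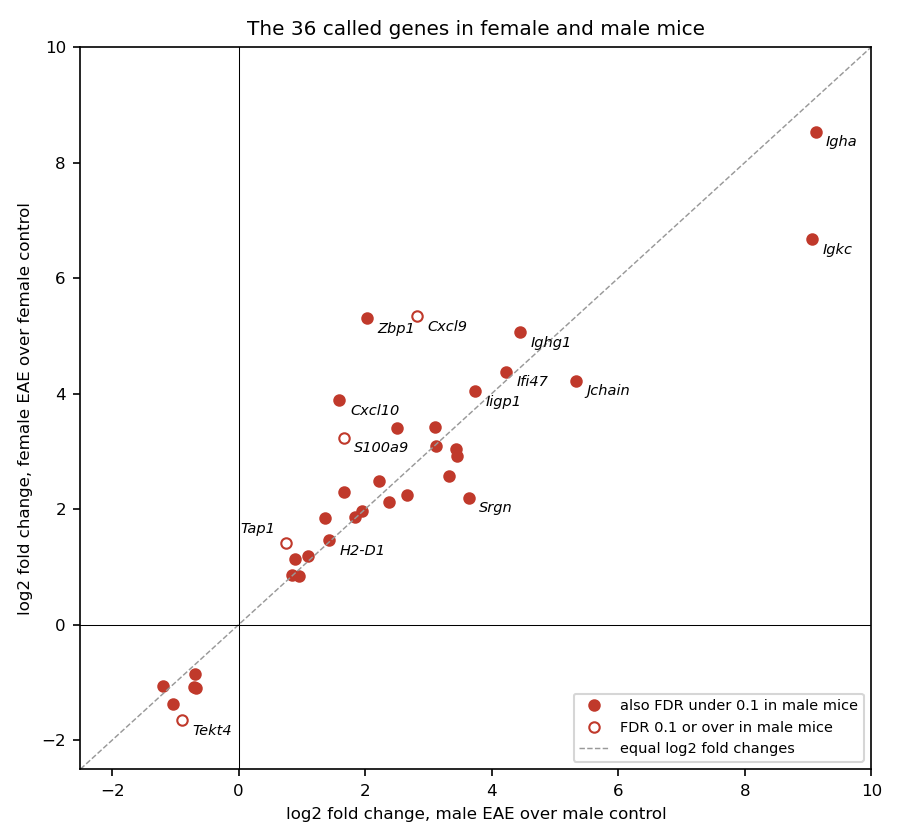
Log2 fold change of the 36 called genes in female mice (vertical axis) against that in male mice (horizontal axis), 1 point per gene, filled where the adjusted p in males was also under 0.1; the dashed line marks equal values. All points lie in the upper right or lower left, with Zbp1, Cxcl9, Cxcl10 and S100a9 above the line and Igkc and Srgn below it.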

How the data were processed

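The values used are counts of reads per gene that the authors deposited in 1 table for all 17 libraries. Per the labels and the study's methods, polyadenylated RNA from the HA pull-down was sequenced paired-end, reads were demultiplexed with bcl2fastq 2.17, checked with FastQC, trimmed with Trimmomatic, and aligned and counted with QuasR on mm10. The libraries were made with a stranded kit, while the annotation release and the strand setting of the counting are not given in the sources used here. Gene symbols and chromosomes were taken from GENCODE M21 (GRCm38), which matched 37607 of the 39017 identifiers. Of the 1410 unmatched identifiers, 437 passed the filter and were left out. They held 0.594% to 0.634% of the counts of the female libraries.

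Groups were taken from the titles of the samples. Counts were scaled by TMM and tested with edgeR 4.0.16 (quasi-likelihood, group only, R 4.3.3) on the 8 female libraries, and p-values were adjusted by Benjamini-Hochberg over the 20606 genes. CPM are scaled by the TMM factors. The p-values measure the spread between mice, and counting intervals (95%) and the floor of 3 counts cover counting error only. The scripts were tested on simulated data. Total counts ranged between 66155142 and 92822398. Pairs of libraries of 1 group differed by 28.9 to 162 in chi-square per degree of freedom, so none is a copy of another. Alternatives covered normalization, filter, chromosomes, test (DESeq2 1.42.0, limma 3.58.1), covariates (sva 3.50.0), samples and threshold.

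Genes and lists were chosen with earlier results of these data known. Genes named in the text are all those called and, for each list, the first 2 members tested in list order and the 2 with the smallest p, besides cell type markers, overlapping genes and those said to be chosen after their values were seen. Not every gene this rule selects is reported here.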

Additional observations from a re-analysis of the deposited data

Results flagged for a closer look

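A library was singled out where it lay far from the other 3 of its group, its gap to the nearest of them exceeding Dixon's 95% limit as a share of the group's range. This held for 17 of 92 groups examined, and chance gives about 1 in 20.

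Among the female EAE libraries, EAE 5 lay apart on the low side for H2-D1 (37.2 CPM), H2-Ab1 (0.871 CPM) and C4b (2.31 CPM). EAE 1 lay apart with 0.848 CPM of AW112010, 0.673 CPM of Cxcl9 and 9.59 CPM of Kirrel2, and with microglial markers summing to 121.3 CPM. EAE 4 lay apart with 1.18 CPM of Tekt4 and the largest total of the EAE libraries (86691316 counts).

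Among the female controls, control 3 lay apart on the high side for Igha (0.0801 CPM), Igkc (0.538 CPM), the B and plasma cell markers (0.755 CPM) and the microglial markers (77.5 CPM). Control 2 lay apart with 0.0249 CPM of Zbp1, an endothelial marker sum of 15.9 CPM and the lowest slope of expression on gene length (-0.105). Control 1 lay apart with 0.0214 CPM of Cxcl9. The Zbp1 and Cxcl9 values of these controls rest on 2 counts each, with 0 in the other controls.

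Outside the autosomal genes tested, the X-linked gene Tsc22d3, a leucine zipper protein induced by glucocorticoids, also passed when genes of all chromosomes were included, with 119, 105, 138 and 98.3 CPM in EAE libraries, against 169, 266, 266 and 241 CPM in controls (log2 fold change -1.10, edgeR adjusted p = 0.0369). It was chosen after its values were seen.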

How the results depend on the processing

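The call of single genes depended on the test, the filter and the libraries, while no called gene turned its direction under the 26 alternatives. The EAE and control libraries of all 36 called genes did not overlap, so fits that leave out libraries could hardly turn them. A stricter FDR threshold changes no estimate. The kept direction is therefore no test of these genes. Beside the 36 genes (30 higher, 6 lower) by edgeR's quasi-likelihood test, DESeq2 called 691 (451 higher, 240 lower), edgeR's likelihood ratio test 430 (305 and 125) and its exact test 369 (264 and 105), all of which included the 36, and limma voom 18 (14 higher). With no filter on low counts 70 genes were called (53 and 17), among the 12820 genes with a mean log2 CPM above 1, tested alone, 1 (H2-D1, 1 higher and 0 lower, 2761 at an unadjusted p under 0.05), and at an FDR of 0.05 16 (15 and 1). A surrogate variable gave 58 (46 and 12), and the female contrast in a fit of all 17 libraries 15 (10 higher). Leaving out 1 library gave 8 to 102 genes called, 8 to 61 higher and 0 to 41 lower. Without EAE 1 and control 3 there were 4 (4 and 0), a choice made after seeing the data, as was leaving out EAE 4 and control 2, the ends of the first component. For the difference between the sexes DESeq2 called 3 genes where edgeR called 0. The cause of these differences was not tested. Of the called genes' values, 138 of 288 in fits without 1 library and 145 of 623 elsewhere kept their direction and missed the threshold. Of the other named genes' values, 10 (8 genes) of 936 in fits without 1 library and 89 (31 genes) of 2085 elsewhere passed the threshold, most of them with DESeq2, the likelihood ratio test or the exact test. With no filter on low counts these included H2-K1, Irgm1, Cd8a, Dusp1, Btg2, Igfbp2 and Htra1, at adjusted p between 0.0515 and 0.0994. Depth limits the genes at few counts, such as Zbp1 and Cxcl9. Both of these passed the filter only with their counts in the EAE libraries.

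EAE and control libraries share the replicate numbers 1, 3 and 4. Deviations of same-numbered libraries correlated at -0.373, 0.378 and 0.52. Those of differently numbered libraries lay between -0.677 and 0.713, so these values cannot decide whether the numbers pair the mice. With the replicate block 54 genes were called (45 higher, 9 lower, 33 of them among the 36), and with the same 6 libraries and group only 28, of which 1 lower. Under the block these uncalled genes turned their log2 fold change: C1qa (-0.18), C1qb (-0.27), Ccl3 (0.59), Cx3cr1 (-0.21), Hmgcs1 (-0.082), Igf1 (-0.021), Pecam1 (0.41) and Snap25 (-0.0093). In the same 6 libraries with group only they were Ccl3 (0.66), Hmgcs1 (-0.092), Igf1 (-0.026), Pecam1 (0.40) and Snap25 (-0.0073).

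Other genes that turned direction, 30 in all under any alternative, were uncalled. They were, with limma voom, C1qa (-0.12), C1qb (-0.23), Cx3cr1 (-0.28) and Pecam1 (0.076). With a surrogate variable they were Ccl3 (0.50), Gad1 (-0.060), Gria2 (-0.11), H2-T22 (0.057), Igf1 (-0.25), Ighm (0.19), Mrpl2 (0.072), Pdhb (0.083), Pecam1 (0.23), Psma2 (0.014), Rbfox2 (-0.091), Slc17a7 (-0.023) and Stat2 (0.10). With a gene length offset they were Gria2 (-0.081), Scn2a (-0.0015) and Slc17a7 (-0.0017). With no normalization factor they were H2-T22 (0.0024), Hspa1b (0.0057), Mrpl1 (0.011), Pecam1 (0.053) and Stat2 (0.043). Without the ends of the first component they were Ccl3 (0.37), Gad1 (-0.016), Gria2 (-0.072), H2-T22 (0.032), Igf1 (-0.15), Ighm (0.10), Mrpl2 (0.067), Pdhb (0.057), Pecam1 (0.25), Rbfox2 (-0.039) and Stat2 (0.060). Without EAE 1 and control 3 they were C1qa (-0.43), C1qb (-0.53), Camk2a (0.18), Cldn5 (-0.21), Cx3cr1 (-0.62), Hspa1b (0.056), Igf2 (0.46), Notch1 (0.052), Notch2 (0.17) and Stat2 (0.034). Leaving out 1 library turned C1qa (-1.03 to 1.09), C1qb (-1.43 to 1.32), Camk2a (-0.21 to 0.066), Ccl3 (-1.59 to 0.31), Cldn5 (-0.024 to 0.62), Cx3cr1 (-0.91 to 0.54), Gria2 (-0.021 to 0.12), Hmgcs1 (-0.083 to 0.12), Hspa1b (-0.089 to 0.028), Igf1 (-0.043 to 0.36), Igf2 (-1.03 to 0.40), Ighm (-0.32 to 0.067), Malat1 (-0.32 to 0.038), Mbp (-0.020 to 0.16), Mog (-0.021 to 0.23), Mrpl2 (-0.16 to 0.0059), Notch1 (-0.25 to 0.017), Notch2 (-0.24 to 0.092), P2ry12 (-0.44 to 0.64), Pdhb (-0.13 to 0.0013), Pecam1 (-0.15 to 0.30), Slc17a7 (-0.0066 to 0.091) and Stat2 (-0.060 to 0.064).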
